A study of Schizocosa ocreata with 10 samples.

Results

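The genes described here are those whose closest fruit fly gene, in the deposited annotation of the wolf spider Schizocosa ocreata, carries the name EcR, usp, Hr38, Hr39, Hr78 or Hr96. The names were chosen with earlier results of these data known. Genes were then taken by name alone, and there are 9 of them among the 25922 genes with counts. EcR, Hr38, Hr39 and Hr78 have 1 gene each, usp has 2 and Hr96 has 3. Each is called below by the fly name and the gene number of the annotation, and the 9 are called receptor genes by that name only.

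The names are those of fly nuclear receptors. Proteins of this family bind DNA through a zinc finger domain and, in many members, a small fat-soluble molecule through a ligand-binding domain. In arthropods, the steroid 20-hydroxyecdysone sets off each molt by binding a pair of nuclear receptors, EcR and its partner ultraspiracle (usp), the counterpart of the vertebrate retinoid X receptor (RXR). In the fly, Hr38 can also pair with usp and is switched on by activity in neurons, Hr78 can bind ecdysone response elements, Hr39 is a relative of FTZ-F1, and Hr96 acts in the handling of foreign compounds, lipids and cholesterol.

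Polyadenylated RNA was sequenced from the dissected brains of individual field-collected spiders. The comparisons ask how brain expression differs with the molt to maturity and between the sexes. The libraries came from 2 mature males (replicates 2 and 3), 3 mature females (1, 2 and 3), 3 immature males (1, 2 and 3) and 2 immature females (2 and 3), all untreated and of wild origin. Mature spiders were adults 24 hours past their last molt. Immature spiders were subadults whose age and time left before that molt were not known, so their place in the molt cycle is not known. No spider was pooled with another, and no line, transgene or treatment was involved.

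The 10 libraries held 3481348 to 11789754 counted reads, and mature female 2 and immature male 1 held the fewest. Values are given as CPM, the reads of a gene per 1000000 counted reads of its library, where the library totals were scaled by the TMM method with factors of 0.883 to 1.11. All 9 receptor genes passed the filter on low counts, as did 24930 genes in all. As a check of the tissue, 37 genes matching 10 of 11 neuronal marker names took 0.271% to 0.650% of the reads, and none of the 37 was at 0 in every library. No gene matched the neuronal marker elav. Genes matching 9 of 12 muscle marker names took far more, at 10.04% to 11.3% in mature males, 12.4% to 15.2% in mature females, 8.58% to 12.6% in immature males and 6.60% to 10.4% in immature females. Glial marker genes took 0.0561% to 0.0760%, blood and fat body genes 0.0779% to 1.68% and cuticle genes 0.0697% to 0.894% of the reads. Per the labels the dissected tissue may include esophagus. The part of this other tissue in the receptor values was not tested. In whole dissected tissue, fewer cells that express a gene and less RNA per cell cannot be told apart.

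The annotation differs in how firmly it supports each name. Of the 9 genes, 5 have both the zinc finger domain (Pfam zf-C4) and the ligand-binding domain (Pfam Hormone_recep), 1 has the zinc finger alone, 2 have the ligand-binding domain alone, and EcR Gene017234 has neither. EcR Gene017234 is a coding frame of 432 nucleotides on the minus strand of its contig, at bases 110 to 541, and its name rests on the name column only. No alignment to a fly or other protein is recorded for it, and 0 annotated genes have a recorded match to an ecdysone receptor. It shares 395 nucleotides with Gene017235 on the same strand, which received 337 reads against 4534 reads for Gene017234 over the 10 libraries. Values under the name EcR are therefore values of this frame, and whether it encodes the receptor was not tested.

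The usp genes can be placed on the fly protein. Gene007749 has 1083 nucleotides, both domains and 67.4% identity to an RXR protein, and its alignment covers residues 90 to 486 of fly usp. Gene018956 has 504 nucleotides, the ligand-binding domain alone and 78% identity to RXR-alpha-A, and its alignment covers fly residues 281 to 455. The aligned stretches overlap in the ligand-binding domain, so the genes do not cover separate ends of the fly protein. Whether they are paralogs, alleles or variant transcripts cannot be told apart from the annotation, and reads may be shared between them.

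Hr38 Gene001184 has 1719 nucleotides, both domains and 75.29% identity to fly HR38. Hr39 Gene009352, of 2490 nucleotides, has both domains and 52.65% identity to FTZ-F1 beta. Hr78 Gene000066, of 1755 nucleotides, has both domains and 53.14% identity to a vertebrate receptor of the testicular receptor group, NR2C2. Among the Hr96 genes, Gene008208 (1410 nucleotides) has both domains and aligns at 50.75% identity to HR96 itself. Gene006770 (756 nucleotides) has the zinc finger alone and 28.83% identity to a vitamin D3 receptor B, with fly residues 4 to 98 covered at 44.33% identity. Gene024602 (645 nucleotides) has the ligand-binding domain alone and 34.41% identity to a vitamin D3 receptor, with fly residues 600 to 721 covered. The stretches of Gene006770 and Gene024602 do not meet, so whether they belong to a single gene was not tested. Other predicted frames overlap Hr38 Gene001184, Hr39 Gene009352 and Hr96 Gene006770. Those on Hr38 lie on the opposite strand and drew 322 and 329 reads against 1883 for Hr38. The frame on Hr39 drew 159 reads against 3303 for Hr39. On Hr96 Gene006770, Gene006771 of the same strand drew 46 reads and Gene006772 of the opposite strand 37, against 178 for Gene006770. The strand setting of the counting is not given in the sources used here, so reads of overlapping frames cannot be told apart by strand.

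**Figure D1:**
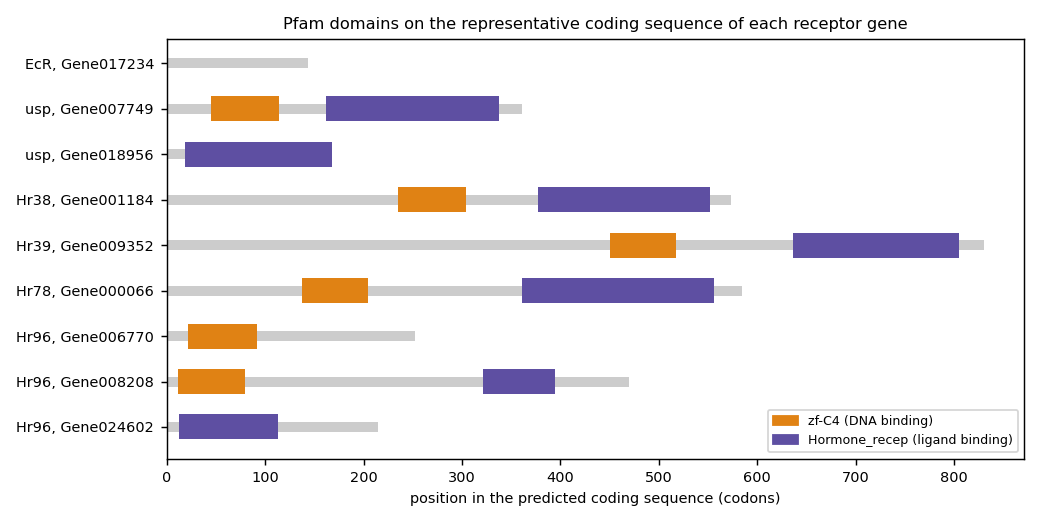
Position of the Pfam domains zf-C4 and Hormone_recep on the coding sequence of each of the 9 receptor genes, with position in codons on the horizontal axis and the grey bar for the whole predicted sequence. The sequences run from 144 codons for EcR Gene017234, which has no domain, to 830 codons for Hr39 Gene009352, which has both.

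To set the genes side by side, the CPM was divided by the length of the coding sequence in kilobases (RPKM), since a longer sequence collects more reads. The reads were counted per gene, a cluster of coding sequences, while the length is that of a single annotated sequence, which may be partial. The order of the genes and the size of ratios between them depend on these lengths and are approximate. The mean RPKM level over the 10 libraries was highest for EcR Gene017234 at 118 ± 31.5 (SD, n = 10), followed by usp Gene018956 at 49.8 ± 15.4 and Hr78 Gene000066 at 26.1 ± 4.52. Hr38 Gene001184 at 15.9 ± 12.8, Hr39 Gene009352 at 14.9 ± 3.90 and Hr96 Gene008208 at 14.7 ± 3.11 RPKM lay close together, and their order was not fixed. Hr38 stood above Hr39 in 5 of 10 libraries and Hr39 above Hr96 Gene008208 in 4 of 10. Lower levels were found for usp Gene007749 at 9.27 ± 6.32, Hr96 Gene024602 at 7.16 ± 3.36 and Hr96 Gene006770 at 2.82 ± 2.20 RPKM. Of the neighbours in this order, EcR exceeded usp Gene018956 in 10 of 10 libraries and Hr96 Gene024602 exceeded Gene006770 in 10 of 10. Gene006770 was not the lowest in every library, since in mature females 1 and 2 it had 7.23 and 5.69 RPKM, where usp Gene007749 had 6.33 and 5.39 RPKM. Of the other neighbours, usp Gene018956 exceeded Hr78 in 9 of 10 libraries, Hr78 exceeded Hr38 in 8, Hr96 Gene008208 exceeded usp Gene007749 in 8, and usp Gene007749 exceeded Hr96 Gene024602 in 5. The genes also differed in how much they varied between libraries, with a coefficient of variation of the CPM of 17.3% for Hr78 and 80.5% for Hr38.

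**Figure D2:**
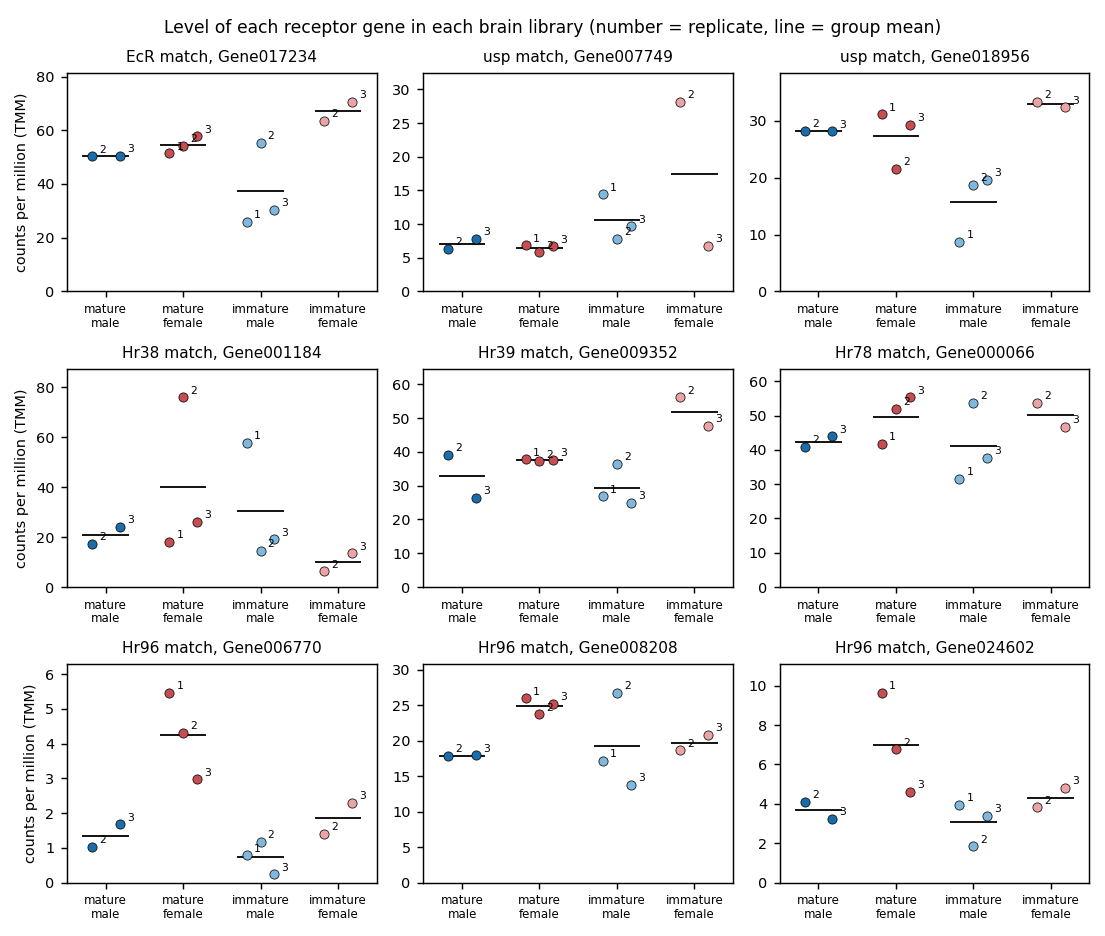
CPM (TMM-scaled) of the 9 receptor genes, 1 panel per gene, in mature males, mature females, immature males and immature females. Each point is 1 library numbered by replicate, and the line is the group mean. Hr78 Gene000066 stays within 31.6 to 55.3 CPM, while Hr38 Gene001184 runs from 6.32 to 75.9 CPM with mature female 2 and immature male 1 on top.

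EcR Gene017234 varied less among mature than among immature spiders. It had 50.4 and 50.6 CPM in mature males and 51.4, 54.1 and 57.8 CPM in mature females, against 25.9, 55.3 and 30.5 CPM in immature males and 63.6 and 70.6 CPM in immature females. The mature libraries all lay within the range of the immature ones. The log2 fold change, mature against immature over both sexes, was 0.07 with a standard error (SE) of 0.22. Between the sexes of the immature stage the libraries did not overlap, with all 3 males below both females. The blood and fat body marker share was 0.145% to 0.157% in immature males and 0.321% and 1.68% in immature females, and its part in this and the other immature sex differences, of usp Gene018956 and Hr39, was not tested. Immature males against immature females gave a log2 fold change of -0.85 (SE 0.31), which did not pass edgeR's quasi-likelihood test (adjusted p = 0.737). It ran from -1.26 to -0.65 as each library was left out. The -1.26 came without immature male 2, whose value lay nearest to the females, with an adjusted p of 0.0764 in the same edgeR test. That omission also raised the number of all genes called in this comparison from 8 to 135. Immature male 2 was also low in Hr4 Gene001811, a gene of the molting cascade taken up below, at 1.34 CPM. Immature males 1 and 3 had 505 and 668 CPM of it, and immature females 2 and 3 had 143 and 1.42 CPM. The part of the place in the molt cycle in the immature sex differences was not tested.

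The partner of EcR was represented by genes with unlike patterns. The usp gene with both domains, Gene007749, had 6.34 and 7.78 CPM in mature males and 6.86, 5.84 and 6.68 CPM in mature females, against 14.4, 7.85 and 9.70 CPM in immature males and 28.2 and 6.78 CPM in immature females. The 5 mature libraries were alike, and 4 of the 5 immature libraries lay above all of them. Immature female 3, at 6.78 CPM, did not. The mean was 6.70 ± 0.716 CPM in mature and 13.4 ± 8.77 CPM in immature spiders (SD, n = 5 each). Its log2 fold change with maturity was -1.01 (SE 0.38), with an adjusted p of 0.284 in edgeR's quasi-likelihood test, so usp Gene007749 did not pass. It depended on immature female 2, without which it was -0.30, and in females alone -1.43 (SE 0.52) became -0.05 without that library. Leaving out immature female 3 instead gave -1.35, with an adjusted p of 0.0865 by edgeR.

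The usp gene with the ligand-binding domain alone, Gene018956, followed another order. It had 28.3 and 28.1 CPM in mature males and 31.1, 21.5 and 29.2 CPM in mature females, against 8.69, 18.7 and 19.6 CPM in immature males and 33.3 and 32.4 CPM in immature females. Both mature males lay above all 3 immature males, and all 3 mature females lay below both immature females. With maturity it had a log2 fold change of 0.84 (SE 0.35) in males, with an adjusted p of 0.636 in edgeR's quasi-likelihood test, and 0.55 without immature male 1. In females it was -0.26 (SE 0.35), smaller than its SE, with an adjusted p of 0.795 in the same test. The difference between the sexes in this stage effect, tested as the interaction, was 1.11 on the log2 scale (SE 0.49), with an adjusted p of 1.00 in the same edgeR test. Within the immature stage, males against females gave -1.06 (SE 0.35) and an adjusted p of 0.669 by edgeR.

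Set against each other in RPKM, the usp genes gave a ratio that needs no scaling between libraries. The ratio of Gene018956 to Gene007749 was 9.57 and 7.78 in mature males and 9.74, 7.92 and 9.41 in mature females, against 1.30, 5.12 and 4.35 in immature males and 2.54 and 10.3 in immature females. The 5 mature spiders and immature female 3 thus lay between 7.78 and 10.3, and the other 4 immature spiders lay below. In reads, Gene007749 took 18.1% to 21.6% of the reads on the usp genes in the mature libraries. It took 62.4% in immature male 1 (95% Wilson interval 53.4% to 70.6%) and 45.8% in immature female 2 (42.4% to 49.3%). The same share was 29.6% (23.0% to 37.1%) in immature male 2, 33.1% (27.5% to 39.1%) in immature male 3 and 17.3% (13.8% to 21.6%) in immature female 3. These intervals cover counting error only. The RPKM of EcR Gene017234 divided by the summed RPKM of both usp genes lay between 1.47 and 2.88 over the 10 libraries.

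The 3 libraries with the lowest usp ratio were also high in a gene of the molting cascade. The 3 lowest ratios, in immature male 1, immature female 2 and immature male 3, came from the 3 libraries in which Hr4 Gene001811 stood at 505, 143 and 668 CPM. In the other 7 libraries Hr4 Gene001811 stood at 1.34 to 5.13 CPM, and immature male 2, with the next lowest ratio of 5.12, had the 1.34 CPM. Hr4 is a nuclear receptor that in the fly is switched on by ecdysone ahead of metamorphosis. This gene was picked out after its values had been seen, and the coincidence is given as a description without a test.

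**Figure D3:**
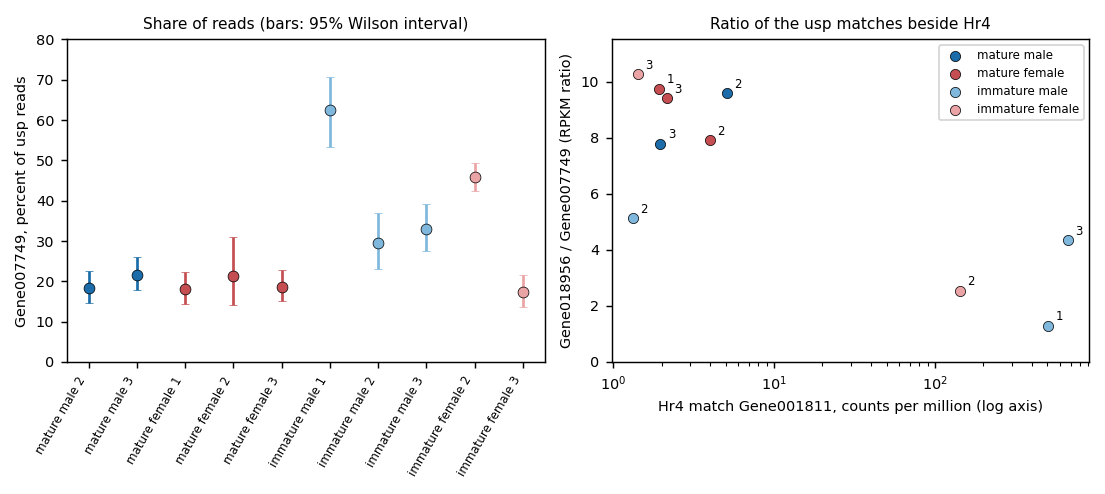
Left, percent of the usp reads that fell on Gene007749 in each library, with 95% Wilson intervals. Right, RPKM ratio of Gene018956 to Gene007749 against the CPM of Hr4 Gene001811 on a log axis, 1 point per library numbered by replicate. The libraries with Hr4 at 143 to 668 CPM have ratios of 1.30 to 4.35, and the 5 mature libraries have ratios of 7.78 to 9.74 with Hr4 at 1.93 to 5.13 CPM.

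Among the orphan receptors, Hr38 Gene001184 had the highest coefficient of variation, 80.5% against 77.9% for Hr96 Gene006770, while the ratio of the highest to the lowest library was 12.0 for Hr38 and 23.4 for Hr96 Gene006770. It had 17.3 and 24.0 CPM in mature males and 18.1, 75.9 and 26.1 CPM in mature females, against 57.7, 14.5 and 19.2 CPM in immature males and 6.32 and 13.6 CPM in immature females. A single library stood far above the rest in each of the mature females and the immature males. These libraries, mature female 2 and immature male 1, were the 2 with the fewest reads, 3481348 and 5014354, and Hr38 drew 247 and 292 reads in them. Their neuronal marker shares were 0.473% and 0.321%, within the range of the other libraries. Their cuticle marker shares were 0.894% and 0.840%, against 0.0697% to 0.345% in the others except mature male 2, which had 0.890% and Hr38 at 17.3 CPM. The part of depth and of this tissue in the Hr38 values was not tested. In females, the 3 mature libraries lay above both immature ones. Its log2 fold change there was 2.00 (SE 0.79), or 1.16 without mature female 2, and the adjusted p in edgeR's quasi-likelihood test was 0.462. In males it was -0.55 (SE 0.74) and turned to 0.29 without immature male 1. All 3 immature males lay above both immature females, with a log2 fold change of 1.61 (SE 0.78), or 0.77 without immature male 1. The interaction of stage and sex was -2.56 on the log2 scale (SE 1.08), with an adjusted p of 1.00 in the same edgeR test.

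Hr39 Gene009352 had its highest values in immature females. It had 39.2 and 26.5 CPM in mature males and 37.8, 37.2 and 37.6 CPM in mature females, against 26.9, 36.4 and 24.9 CPM in immature males and 56.2 and 47.7 CPM in immature females. All 3 immature males lay below both immature females, while the mature sexes overlapped. The log2 fold change of males against females was -0.82 (SE 0.26) in the immature stage, with an adjusted p of 0.669 by edgeR's quasi-likelihood test. It was -0.51 (SE 0.19) over both stages.

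Hr78 Gene000066 had the lowest coefficient of variation of the set. It had 40.8 and 43.9 CPM in mature males and 41.8, 52.0 and 55.3 CPM in mature females, against 31.6, 53.8 and 37.7 CPM in immature males and 53.7 and 46.8 CPM in immature females. The groups overlapped in stage. With maturity its log2 fold change over both sexes was 0.01 (SE 0.19). In males against females over both stages it was -0.26 (SE 0.19).

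The Hr96 gene with the zinc finger alone, Gene006770, had the lowest level of the set and was lower in males than in females within each stage. It had 1.03 and 1.67 CPM in mature males and 5.47, 4.30 and 2.98 CPM in mature females. It had 0.790, 1.17 and 0.234 CPM in immature males and 1.40 and 2.30 CPM in immature females. Within each stage every male lay below every female, although immature female 2 at 1.40 CPM lay below mature male 3 at 1.67 CPM. These values rest on few reads, 2 to 17 in male libraries and 14 to 51 in female libraries. The mean was 0.978 ± 0.527 CPM in males and 3.29 ± 1.61 CPM in females (SD, n = 5 each). The log2 fold change of males against females over both stages was -1.51 (SE 0.42), with an adjusted p of 0.942 in edgeR's quasi-likelihood test and 0.121 in its likelihood ratio test. It ran from -1.80 to -1.26 as each library was left out. In the mature stage alone it was -1.64 (SE 0.59). Mature spiders had a higher mean than immature ones, 3.09 ± 1.83 and 1.18 ± 0.765 CPM (SD, n = 5 each), and the stages overlapped. The log2 fold change was 1.06 (SE 0.42), with an adjusted p of 0.298 by edgeR's quasi-likelihood test. The means by sex and by stage pool unequal numbers of libraries from the groups, while the log2 fold changes weight the group means equally. The muscle marker share was 12.4% to 15.2% in mature females and 6.60% to 12.6% in the other groups, and its part in these values was not tested.

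The other Hr96 genes were also lower in mature males than in mature females, though neither passed the test. Gene024602 had 4.10 and 3.25 CPM in mature males and 9.65, 6.76 and 4.60 CPM in mature females. It had 3.95, 1.84 and 3.39 CPM in immature males and 3.82 and 4.81 CPM in immature females. Both mature males lay below all 3 mature females, and the immature sexes overlapped. Over both stages the log2 fold change of males against females was -0.71 (SE 0.30). The Hr96 gene with both domains, Gene008208, had 17.8 and 17.9 CPM in mature males and 25.9, 23.7 and 25.2 CPM in mature females. It had 17.2, 26.7 and 13.8 CPM in immature males and 18.7 and 20.8 CPM in immature females. Here too the mature sexes did not overlap and the immature sexes did. Per length, Gene008208 made up 45.3% to 81.2% of the summed RPKM of the Hr96 genes.

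None of these differences passed the test across all genes. In each of the 7 comparisons, 0 of the 9 receptor genes had a Benjamini-Hochberg adjusted p under 0.05 in edgeR's quasi-likelihood test, and 0 did in edgeR's likelihood ratio test or in DESeq2. Of the 63 tests of a receptor gene in a comparison, 14 had an unadjusted p under 0.05 in the quasi-likelihood test. Among the 63, adjusted p was no lower than 0.284 in the quasi-likelihood test, 0.121 in the likelihood ratio test and 0.186 in DESeq2. Few genes of any kind passed the quasi-likelihood test. For mature against immature it called 0% of all tested genes over both sexes, 0% in females and 0.00802% in males. For males against females it called 0.0401% over both stages, 0.0321% in the immature and 0.0401% in the mature stage, and it called 0% for the interaction. The likelihood ratio test called 2.59%, 1.18% and 0.517% of all genes with stage over both sexes, in females and in males. It called 0.377%, 0.566% and 0.181% between the sexes over both stages, in the immature and in the mature stage, and 0.0562% for the interaction. Read against these shares, a count of 0 of 9 is not a result about the receptors, and a p that misses the threshold does not show that they were alike between groups.

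Counts of non-overlapping groups and of small unadjusted p stand beside the same over all genes. Over both sexes, 0 of the 9 receptor genes separated mature from immature spiders, against 3.4% of all genes. In females 6 of 9 did, 3 higher and 3 lower in the mature, against 25% of all genes. In males 2 of 9 did, 1 in each direction, against 22.5%. Between males and females, 0 of 9 separated over both stages, against 0.594% of all genes. In the immature stage 5 of 9 separated, 1 higher and 4 lower in males, against 15% of all genes. In the mature stage 4 of 9 separated, all 4 lower in males, against 13.9% of all genes. The genes behind the mature count were EcR and all 3 Hr96 genes. For EcR the log2 fold change between the mature sexes was -0.11 (SE 0.32), smaller than its SE. The receptor genes with an unadjusted p under 0.05 by edgeR's quasi-likelihood test were 2 of 9 with stage over both sexes (15.1% of all genes), 2 in females (10.5%) and 1 in males (7.44%). Between the sexes they were 3 over both stages (4.45%), 3 in the immature (6.01%) and 1 in the mature stage (2.47%), and they were 2 for the interaction (3.20%).

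The direction of the sex difference was lower in males for most of the set. Of the 9 receptor genes, 8 had a negative log2 fold change of males against females over both stages and 8 did in the immature stage, with Hr38 the exception in both. The mature stage had 7 negative values. Over both stages 7 of the 9 kept their direction in every alternative fit, while usp Gene007749 turned without immature female 2 and Hr38 without immature male 1. The median log2 fold change of the 9 was -0.48 over both stages, -0.72 in the immature and -0.23 in the mature stage, where the medians of all genes were -0.01, -0.00 and -0.02. With maturity the median was 0.12 over both sexes, -0.02 in females and 0.16 in males, where the medians of all genes were -0.02, -0.02 and -0.01. These comparisons share libraries and are not independent of each other. The genes may not be independent either, since the usp genes may share reads and Hr96 Gene006770 and Gene024602 may belong to a single gene. The share of all genes with a negative value is not given here, so the counts of direction are a description only.

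**Figure D4:**
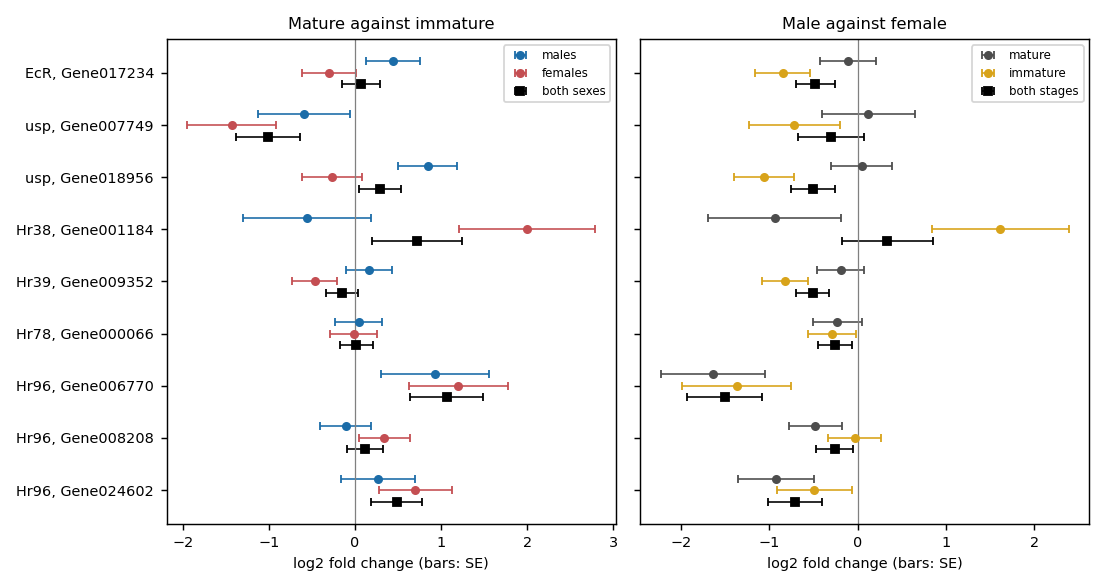
Log2 fold change with SE of the 9 receptor genes, mature against immature on the left and males against females on the right, from edgeR's fit over 10 libraries. None passed the quasi-likelihood test. Over both stages the male against female values lie below 0 for 8 of 9 genes, with Hr96 Gene006770 lowest at -1.51.

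The receptors were then read beside the rest of their family and the genes around them in the ecdysone pathway. The other nuclear receptors were taken as the genes with a zf-C4 or Hormone_recep domain that are not among the 9, and there are 14 of them under 8 fly names. With maturity over both sexes, the quasi-likelihood test of edgeR called 0 of the 14 and its likelihood ratio test called 4, all lower in mature spiders. DESeq2 called the same 4, and 6 of the 14 had an unadjusted p under 0.05 in the quasi-likelihood test, against 15.1% of all genes. The median log2 fold change of the 14 was -0.69, against 0.12 for the 9 receptor genes and -0.02 for all genes. Eip75B Gene005488, an early gene of the ecdysone response, had a log2 fold change of -1.97 (SE 0.45), with an adjusted p of 0.00425 in the likelihood ratio test and 0.180 in the quasi-likelihood test of edgeR. It had 42.9 to 68.9 CPM in mature and 86.5 to 479 CPM in immature spiders, with no overlap. The Hr4 genes Gene001472 and Gene001811 had log2 fold changes of -4.03 (SE 1.00) and -5.80 (SE 1.60), with likelihood ratio adjusted p of 0.00286 and 0.00587 by edgeR. Hr3 Gene022715, a receptor that in the fly activates ftz-f1, had a log2 fold change of -3.45 (SE 1.03) with a likelihood ratio adjusted p of 0.0222 by edgeR. It stood at 2.46 to 3.08 CPM in mature spiders, against 138 and 143 CPM in immature males 3 and 1 and 18.2 CPM in immature female 2, and at 1.42 and 1.84 CPM in the other immature spiders. The 3 libraries at 18.2 CPM and above are those with the lowest usp ratios.

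In females alone, the likelihood ratio test called 1 of the 14, Eip75B Gene005488, at -2.36 (SE 0.61). In males it called 0, and the lowest likelihood ratio adjusted p was that of Hr4 Gene001472, whose log2 fold change was -5.14 (SE 1.56) and whose adjusted p in edgeR was 0.0678 by the likelihood ratio and 0.603 by the quasi-likelihood test. In males DESeq2 called 3 of the 14, both Hr4 genes and Hr3 Gene022715, all lower in the mature. Between the sexes 0 of the 14 were called by either edgeR test, 1 had an unadjusted p under 0.05 in each of the 3 comparisons, and DESeq2 called Hr3 Gene001858 in the immature stage. In the immature stage the lowest adjusted p by edgeR was that of Hr3 Gene001858, at 2.16 (SE 0.58). In the other sex comparisons and the interaction the adjusted p of the quasi-likelihood test were tied at 1.00, and the gene with the lowest unadjusted p was Hr3 Gene001858 over both stages, at 1.04 (SE 0.38), and for the interaction, at -2.25 (SE 0.78), and Eip78C Gene008954 in the mature stage, at -0.86 (SE 0.36).

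**Figure D5:**
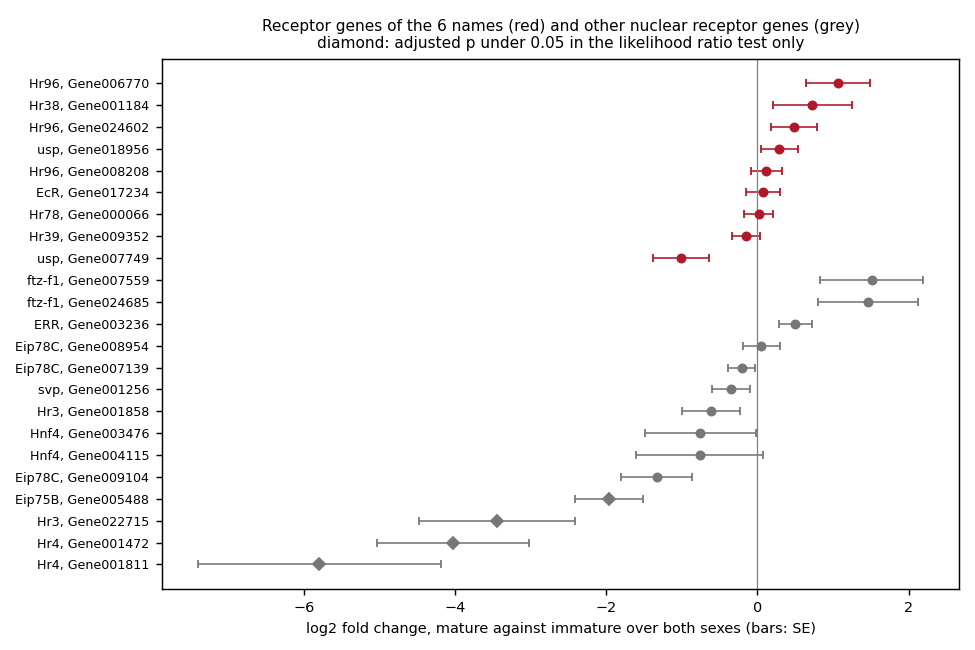
Log2 fold change with SE, mature against immature over both sexes, of the 9 receptor genes (red) and 14 other nuclear receptor genes (grey), from edgeR. Diamonds mark an adjusted p under 0.05 in the likelihood ratio test. The 4 diamonds, at -1.97 to -5.80, are Eip75B, both Hr4 genes and Hr3 Gene022715, while the 9 receptor genes lie between -1.01 and 1.06.

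A list of ecdysone response genes held 41 genes under 12 fly names, with all of the other nuclear receptors above among them. Most of the 41 carry the name Kr-h1 or Blimp-1, so shares and medians over this list rest largely on genes of these names. With maturity over both sexes, edgeR's quasi-likelihood test called 0 and its likelihood ratio test 5, all lower in mature spiders. They were the 4 receptors above and Eip74EF Gene005750 at -1.66 (SE 0.38). Other genes of these names were not called, with Eip74EF Gene016899 at 0.01 (SE 0.34) and Hr3 Gene001858 at -0.62 (SE 0.38). DESeq2 also called 5, and 8 of the 41 had an unadjusted p under 0.05 in the quasi-likelihood test, against 15.1% of all genes. In females the likelihood ratio test called 2, Eip75B Gene005488 and Eip74EF Gene005750 at -2.10 (SE 0.52). Eip74EF encodes an ETS domain transcription factor of the early ecdysone response. The median log2 fold change of the 41 with maturity was -0.10. None of the 41 was called in males, between the sexes or for the interaction by either edgeR test, and for the interaction, where the adjusted p were tied, the lowest unadjusted p was that of Eip74EF Gene016899 at 2.09 (SE 0.68).

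Proteins that work with the EcR and usp pair were read from a list of 23 genes under 14 fly names, among them coactivators, corepressors and chaperones. Both edgeR tests called 0 of the 23 in each of the 7 comparisons. At an unadjusted p under 0.05, 2 of the 23 passed with maturity over both sexes, against 15.1% of all genes, and the lowest adjusted p was that of Fkbp59 Gene013555, a partner of the Hsp90 chaperone, at -0.70 (SE 0.21) and 0.235 by the quasi-likelihood test. In females Fkbp59 Gene013555 stood at -1.34 (SE 0.29), with a likelihood ratio adjusted p of 0.0505 by edgeR. DESeq2 gave an adjusted p of 0.0156, the only call it made on this list in the 7 comparisons. With maturity over both sexes, Fkbp59 Gene016276 and Gene014401 stood at -0.29 (SE 0.24) and -0.10 (SE 0.30). The median log2 fold change of the list with maturity was -0.05.

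Finally, the genes most like each receptor gene across the 10 libraries were sought among 11542 genes with a fly name, leaving out genes of the same contig, by Pearson's r of log2 CPM. The points of these correlations share depth, scaling and the makeup of the dissected tissue, and the highest of many values is given, so they are a description only. EcR Gene017234 was most like CG11594 (r = 0.967), a match to a carbohydrate kinase, with CG5418 and Cpr47Ef next. The usp genes had no such gene in common. Gene007749 was most like CG11357 (r = 0.965), MED23 and Orct, and Gene018956 was most like oaf (r = 0.906), CG14414 and myo. Hr38 was most like Rph (r = 0.920), the fly rabphilin of synaptic vesicles, Ca-alpha1T, a T-type calcium channel subunit, and slbo, a C/EBP transcription factor. Hr39 was most like CG32447 (r = 0.946), a match to a metabotropic glutamate receptor, cysu and DNaseII, and Hr78 was most like Wsck (r = 0.928), RhoBTB and CG1227. Of the Hr96 genes, Gene006770 was most like 2 genes named Mcr (r = 0.935 and 0.921), a macroglobulin complement-related protein, and cu. Gene008208 was most like GlyT (r = 0.940), dop and bab2, and Gene024602 was most like CG9384 (r = 0.887), ArfGAP1 and CG6847.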

How the data were processed

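RNA-seq of 10 brain libraries was analysed. Per the labels and methods, the authors trimmed reads with Trimmomatic 0.32, assembled them de novo, predicted coding sequences, grouped these into genes, aligned reads with BWA 0.6.1-r104 and deposited the counts of reads per gene, without normalization. The treatment of strand, read mates and reads that align to more than 1 gene is not given in the sources used here. Entries of 14278 of 25943 annotated genes stood 1 column to the left and were moved back. The authors' fold changes and p-values were not used.

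Counts were tested in R 4.3.3 with edgeR 4.0.16 (TMM, filterByExpr with a minimum count of 10, quasi-likelihood F test, 4 group means, 10 libraries), and p was adjusted by Benjamini-Hochberg over 24930 genes at a threshold of 0.05. For both sexes or both stages, group means were weighted equally. SE is the absolute log2 fold change divided by the square root of F. Alternatives were edgeR's likelihood ratio test (the study's test), DESeq2 1.42.0, RLE factors, no filter, a mean CPM of at least 1, a replicate block, only the 2 groups compared, and each library left out. The tests were tested on simulated data. Log2 CPM for likeness used a prior count of 2.

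The receptor genes and lists were chosen with earlier results of these data known. By rule, every receptor gene is named, with its 3 most alike named genes. On the lists of other nuclear receptors and of ecdysone response genes, each gene called by either edgeR test is named. Where none was called, the gene with the lowest adjusted p is named (ties by unadjusted p). The list of proteins that work with EcR and usp was not under this rule. Hr4 Gene001811 was also chosen after its values were seen. Immature female 1 and mature male 1, which the study left out for low coverage, were not analysed here. Precision is limited by 2 or 3 spiders per group.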

Additional observations from a re-analysis of the deposited data

Results flagged for a closer look

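Of 36 sets of 5 libraries examined (each receptor gene in the mature, immature, male and female libraries), 6 held a value farther from its neighbour than Dixon's 95% limit of 0.71 of the range allows. The 6 come from 4 values, because each library stands in a stage set and in a sex set. Chance marks about 1 in 20 sets, and since the sets share libraries the 6 are not read as an excess. The usp gene with both domains, Gene007749, stood at 28.17 CPM in immature female 2, with the next female at 6.86 CPM, a gap of 0.954 of the range. Hr38 Gene001184 stood at 75.94 CPM in mature female 2, with the next library at 26.1 CPM both among the mature spiders (0.851 of the range) and among the females (0.716). It stood at 57.67 CPM in immature male 1, with the next library at 19.2 CPM among the immature spiders (0.750) and 24.0 CPM among the males (0.780). Hr39 Gene009352 stood at 26.48 CPM in mature male 3, the lowest of the mature libraries, with the next at 37.2 CPM (0.845).

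The stage difference of usp Gene018956 had opposite signs in the sexes, with both mature males above all immature males and all mature females below both immature females. The log2 fold change was 0.84 (SE 0.35) in males and -0.26 (SE 0.35) in females, the latter smaller than its SE. Stages did not overlap for 22.5% of all genes in males and 25% in females. The interaction was 1.106 on the log2 scale, with an adjusted p of 1.00 in edgeR's quasi-likelihood test.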

How the results depend on the processing

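No receptor gene was called in any of 116 alternative fits over 17 settings. Of 1044 alternative log2 fold changes of the receptor genes, 1005 kept their direction and 39 turned, in 18 of 63 gene and comparison pairs. The lowest adjusted p of the 1044 was 0.0764.

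The number of genes called over the whole table depended on the test. With stage over both sexes, in females and in males, the quasi-likelihood test called 0, 0 and 2 genes, the likelihood ratio test 645, 294 and 129, and DESeq2 742, 376 and 255. Between the sexes over both stages, in the immature and in the mature stage, these tools called 10, 8 and 10, then 94, 141 and 45, and then 120, 233 and 50 genes. For the interaction they called 0, 14 and 32. Without a filter, and with a mean CPM of at least 1, 5 genes were called between the immature sexes in each case. In fits of only the 2 groups compared, 1 gene was called with stage in females, 0 in males and 0 between the immature sexes.

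With each library left out, the counts were 0 to 292 with stage over both sexes (292 without immature male 2), 0 to 49 in females (49 without immature female 3) and 0 to 112 in males (112 without immature male 2, 78 without mature male 3). They were 7 to 39 between the sexes over both stages and 2 to 135 in the immature stage (39 and 135 without immature male 2), 3 to 63 in the mature stage (63 without mature male 3) and 0 to 7 for the interaction.

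Deviations of same-numbered libraries from their group means had correlations of -0.36 to 0.30 over 13 pairs, 5 of them over 0.1. With 2 or 3 libraries per group, the deviations within a group are tied to each other. These correlations therefore cannot show whether the numbers pair the spiders. With the replicate block, 31 genes were called with stage over both sexes, 1 in females, 0 in males, 0 between the immature sexes and 2 between the mature sexes. Under the block the log2 fold change of Hr78 Gene000066 turned to 0.13 with stage in females, -0.071 in males and -0.20 for the interaction, that of usp Gene018956 to -0.093 between the mature sexes, and the interactions of Hr96 Gene006770 and Gene024602 to 0.13 and 0.11. In a fit of only the 2 groups, Hr78 turned to 0.0352 with stage in females. The cause of these changes was not tested.

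With each library left out, log2 fold changes that turned ran as follows. Hr78 Gene000066 ran from -0.065 to 0.14 with stage over both sexes, -0.11 to 0.10 in females, -0.11 to 0.29 in males and -0.095 to 0.30 for the interaction. Hr38 Gene001184 ran from -0.90 to 0.29 with stage in males and -0.086 to 0.76 between the sexes over both stages. The usp gene Gene007749 ran from -0.64 to 0.37 between the sexes over both stages, -1.40 to 0.61 in the immature and -0.035 to 0.27 in the mature stage, and -0.49 to 1.52 for the interaction. The usp gene Gene018956 ran from -0.10 to 0.14 between the mature sexes. EcR Gene017234 ran from -0.034 to 0.27 with stage over both sexes. Hr39 Gene009352 ran from -0.10 to 0.41 with stage in males and -0.49 to 0.058 between the mature sexes. Hr96 Gene008208 ran from -0.30 to 0.21 with stage in males and -0.36 to 0.16 between the immature sexes, and Hr96 Gene006770 ran from -0.76 to 0.30 for the interaction. Depth limits Gene006770 most, at 2 to 51 reads per library.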
